A study of Mus musculus with 6 samples.

Results

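The genes described here are 8 components of the insulin-like growth factor (IGF) system in the embryonic mouse cardiac outflow tract (OFT): the ligand gene *Igf1*, the receptor gene *Igf1r*, and 6 genes for secreted IGF binding proteins, *Igfbp2*, *Igfbp3*, *Igfbp4*, *Igfbp5*, *Igfbp6* and *Igfbp7*. They were taken by gene symbol from a count table of 28777 genes, all 8 were listed, and all 8 were among the 28157 genes tested. The study asked how gene expression in the OFT of compound mutant embryos, a mouse model of OFT malformation, differed from that of wildtype embryos. Bulk RNA-Seq was done at the embryonic stage E13.5 on 6 libraries, each made from 3 OFTs pooled after genotyping, so that a library averages over embryos and over all cell types of the dissected tissue. The 3 libraries labelled mutant carry the genotype *Notch1*-het with *Nos3*-null, which combines heterozygous loss of the Notch receptor gene *Notch1* with homozygous loss of *Nos3*, the endothelial nitric oxide synthase gene. The other 3 libraries are labelled wildtype and were taken from littermates, without treatment in either group. Both alleles are germline knockouts on a C57/BL6J background and are not restricted to one cell type of the OFT.

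IGF1 and its relative IGF2 are secreted peptides that bind the tyrosine kinase IGF1R at the cell surface, which signals through insulin receptor substrates to the PI3K, Akt and mTORC1 branch and promotes growth and survival. In the extracellular space most IGF is held by binding proteins, which extend its half-life, restrict its access to the receptor, or release it when proteases cleave them. In the developing heart, IGF signals are known to promote proliferation of the myocardium.

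Total counts per library ran from 34729103 to 44387490. Levels are given as CPM (read counts scaled to a common library total) after TMM scaling, and a gene was called when the adjusted p of edgeR's quasi-likelihood test was at most 0.05. *Notch1* was 82.0 ± 7.09 CPM (SD, n = 3) in the libraries labelled wildtype and 152 ± 10.9 CPM in those labelled mutant (adjusted p = 0.0313), which goes against heterozygous loss, although counts of the whole gene do not single out the deleted part, and *Nos3* was 42.4 ± 9.18 and 21.5 ± 0.949 CPM (adjusted p = 0.128). For this reason the groups are named below by their labels. The 12 myocardial markers were detected in every library, with a summed level between 21643 and 47017 CPM. Wildtype replicate 1 stood closer to the mutant-labelled libraries than the other wildtype libraries did: on the first principal component, which held 55.7% of the variance, it lay at −7.08, against 21.8 and 43.7 for the others and −31.4 to −3.55 for the mutant label. Wildtype replicates 2 and 3 are numbered by the sample titles, and the sample descriptions give them the opposite library numbers.

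The 8 genes lie on 6 chromosomes (mm10, GENCODE M21). *Igf1* is at chr10:87858265-87937042 on the plus strand, and *Igf1r* at chr7:67952827-68233668 on the plus strand. *Igfbp2* (chr1:72824503-72852474, plus) and *Igfbp5* (chr1:72857932-72874884, minus) are neighbours that face each other tail to tail, 5457 bases apart. *Igfbp3* (chr11:7206086-7213923, minus) has the same arrangement with *Igfbp1*, 3539 bases away, and *Igfbp4* is on the same chromosome at chr11:99041244-99054392 (plus). *Igfbp6* is at chr15:102144362-102149511 (plus) and *Igfbp7* at chr5:77349240-77408041 (minus). An exon of *Igfbp7* shares 85 bases with *Polr2b* on the opposite strand, and whether counting used strand is not given in the sources used here.

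The promoters of the 8 genes were read from RefSeq (GRCm38.p6) as windows from 250 bases before to 50 bases after each RefSeq start, 9 windows in all. RefSeq starts can differ from the GENCODE starts given above. The *Igf1* window lies inside the gene as placed above, and the *Igf1r* window lies before the gene as placed above. Motif positions are counted from the RefSeq starts. The pair whose mutant- and wildtype-labelled libraries did not overlap, *Igfbp5* and *Igfbp7*, had 10 and 33 CG dinucleotides in their windows. The median was 7 over the 32851 windows of all genes. The windows of the other members ran from 6 in *Igf1* to 48 in *Igf1r*, so both counts lie within their range. The 100 bases upstream of the outermost annotated start are shown for both, 5′ to 3′ on the strand of the gene, with each CG in capitals. The *Igfbp5* stretch lies at chr1:72874885-72874984 (minus) and the *Igfbp7* stretch at chr5:77408046-77408145 (minus).
Igfbp5: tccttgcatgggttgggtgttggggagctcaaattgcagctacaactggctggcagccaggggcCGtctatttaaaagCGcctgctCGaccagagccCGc
Igfbp7: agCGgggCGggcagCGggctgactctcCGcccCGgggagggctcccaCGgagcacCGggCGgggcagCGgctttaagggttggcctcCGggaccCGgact
The first stretch holds 4 CG dinucleotides and the second 11. The windows were also searched on both strands for TGGGAA, the core sequence bound by RBPJ, the DNA-binding partner of Notch receptors. It was found in 25.6% of all windows. Among the 8 genes, it was found in *Igf1*, on the opposite strand at position −91 from the RefSeq start, and in *Igf1r*, at position 30 on the same strand. The letters were not found in the windows of the 6 binding protein genes. Both matches are shown in 30 bases with the motif in capitals, at chr10:87861008-87861037 (plus) for *Igf1* and at chr7:67952274-67952303 (plus) for *Igf1r*.
Igf1: ggctcaaggtatTTCCCAgtgcctgagcca
Igf1r: gtgtcctggattTGGGAAggagctcgcggc
TATAAA, the core of the TATA box, was found in the windows of *Igfbp4*, at position −28 on the same strand, and of *Igfbp6*, at position −148 on the opposite strand, and in 13.6% of all windows. A match describes the letters only, and binding was not measured.

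Divided by exon length, *Igfbp5* had the highest level of the 8 genes in the wildtype label, at 168 ± 19.5 CPM per kb (SD, n = 3), above 99.1% of the protein-coding genes tested. *Igfbp4* followed at 66.4 ± 7.82 CPM per kb, and no library of one overlapped any library of the other. *Igfbp3* was at 26.9 ± 1.57, *Igfbp7* at 22.8 ± 3.98, *Igfbp2* at 15.7 ± 3.19 and *Igf1* at 12.7 ± 6.06 CPM per kb. These 4 levels form a run in which the ranges of neighbours overlap, and the range of *Igf1* also overlapped that of *Igf1r*, at 6.59 ± 0.936 CPM per kb. *Igfbp6* was lowest, at 1.28 ± 0.587 CPM per kb, above 35.6% of protein-coding genes. In the mutant label *Igfbp7*, at 32.3 ± 4.80 CPM per kb, had a higher mean than *Igfbp3*, at 26.2 ± 1.01, and *Igf1*, at 18.0 ± 3.50, a higher mean than *Igfbp2*, at 13.8 ± 1.04, and within both of these pairs the ranges overlapped. The other main ligand, *Igf2*, stood far above all 8 genes on this scale, at 971 ± 26.0 CPM per kb in the wildtype label and 922 ± 76.3 in the mutant label, so the *Igf2* level per length was between 51.2 and 129 times that of *Igf1* in the wildtype libraries and between 47.3 and 59.4 times in the mutant-labelled ones.

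**Figure D1:**
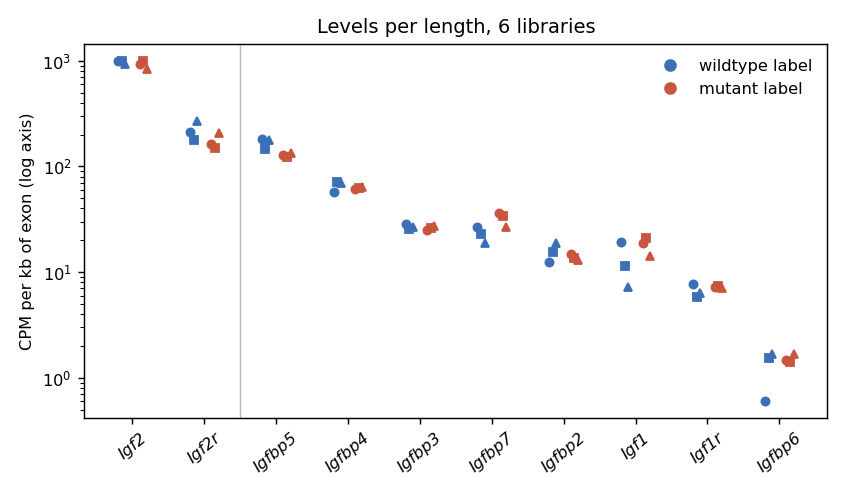
Level of each of the 8 genes in CPM per kb of exon, on a log axis, with 1 point per library by label (circle, square and triangle for replicates 1, 2 and 3) and with *Igf2* and *Igf2r* on the left for scale. Among the 8 genes, *Igfbp5* and *Igfbp4* lie above the others in every library and *Igfbp6* below them.

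None of the 8 genes was called between the labels (0 of 8), where 0.0213% of all genes tested were called (6 of 28157). At an unadjusted p under 0.05 there were 2 of the 8 genes, *Igfbp5*, lower in the mutant label, and *Igfbp7*, higher, and at that threshold 16.1% of all genes passed (8.23% higher and 7.83% lower). The libraries of the labels did not overlap for the same pair of genes, where 19.6% of all genes did not overlap (10.7% higher and 8.94% lower), so both counts are near what single genes of the whole table gave. The median log2 fold change of the 8 genes was 0.04, and that of all genes tested was 0.01. The exact permutation test of 3 libraries against 3 cannot give a two-sided p under 0.1, and the p-values measure the spread between pooled libraries.

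**Figure D2:**
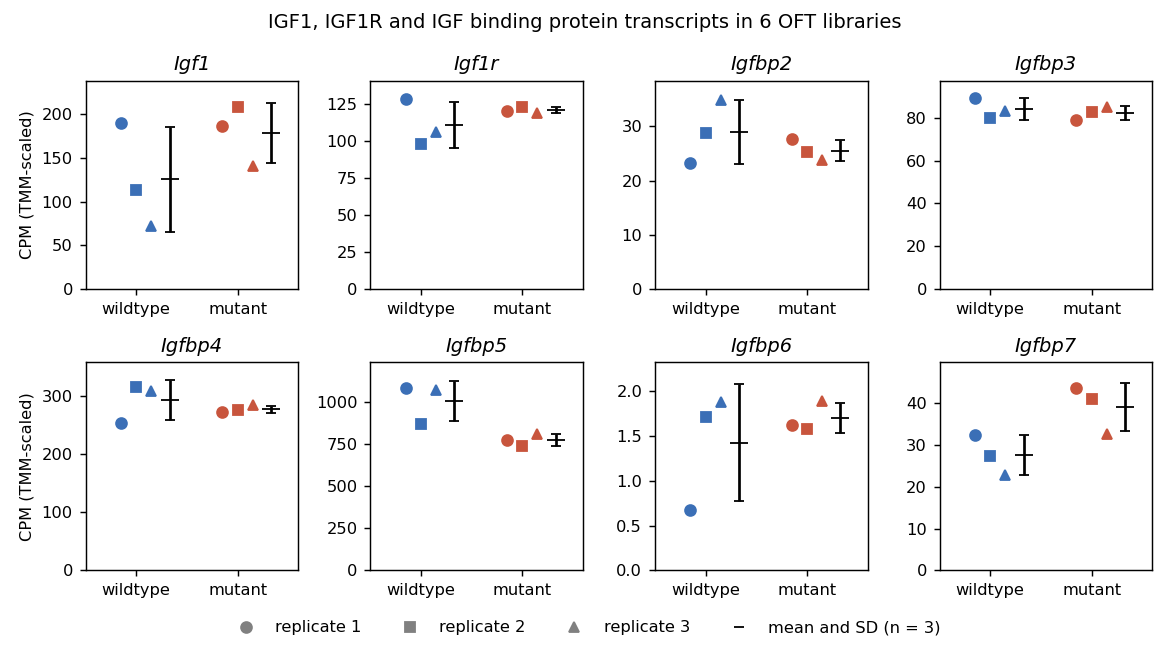
CPM of each of the 8 genes in the 6 libraries, 1 panel per gene, with the mean of each label and its SD. The libraries of the labels are apart for *Igfbp5* and, narrowly, for *Igfbp7*, and overlap for the other 6 genes.

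*Igf1* encodes the circulating and locally made ligand of IGF1R. It stood at 190.5, 114 and 72.3 CPM in wildtype replicates 1, 2 and 3 and at 186, 208 and 140.5 CPM in mutant replicates 1, 2 and 3. Wildtype replicate 1 lay within the range of the mutant label, the other wildtype libraries lay below all mutant-labelled ones, and the highest wildtype level was 2.64 times the lowest. The means were 125 ± 60.0 and 178 ± 34.6 CPM (SD, n = 3 each), the log2 fold change was 0.51 with a standard error of 0.28, and the adjusted p of edgeR's test was 0.395 (exact permutation p = 0.3). *Igf1* had a log2 fold change of 0.94 and an adjusted p of 0.0282 once wildtype replicate 1 was left out, in a comparison where 9.45% of all genes were called. Over all alternative settings its adjusted p ran from 0.00499 to 0.981. In bulk tissue, a change in the share of cells that express a gene and a change in RNA per cell cannot be told apart.

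*Igf1r*, the receptor tyrosine kinase for both ligands, was at 128, 97.9 and 106 CPM in the wildtype libraries and at 120.4, 123 and 119 CPM in those labelled mutant. All 3 mutant-labelled values fell inside the wildtype range. The log2 fold change was 0.12 ± 0.11 (SE), with a 95% interval of −0.12 to 0.37 and an adjusted p of 0.621. The *Igf1* level per length was between 1.16 and 2.52 times that of *Igf1r* in the wildtype libraries and between 2.01 and 2.88 times in the mutant-labelled ones, and these ranges overlapped.

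*Igfbp5*, which encodes a binding protein that attaches to extracellular matrix, was at 1082, 873 and 1070.1 CPM in the wildtype libraries and at 776, 741 and 813 CPM in the mutant-labelled ones. Every mutant-labelled library was below every wildtype library, and the gap between the lowest wildtype and the highest mutant-labelled library was smaller than the spread among the wildtype libraries. These levels rest on 27791 to 48092 counts per library. The means were 1008 ± 117 and 777 ± 35.7 CPM (SD, n = 3 each). The log2 fold change was −0.38 with a standard error of 0.12 and a 95% interval of −0.63 to −0.12, a mean difference of −23.0%, at an unadjusted p of 0.00780 and an adjusted p of 0.207 (exact permutation p = 0.1, the smallest possible). With the DESeq2 Wald test, which called 2.64% of all genes, the adjusted p of *Igfbp5* was 0.0418, and over all alternative settings it ran from 0.00138 to 0.802.

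*Igfbp7*, which encodes a secreted protein of the vascular matrix with low affinity for IGFs, was at 32.4, 27.4 and 22.7 CPM in the wildtype libraries and at 43.7, 41.1 and 32.6 CPM in the mutant-labelled ones. The labels did not overlap, but mutant replicate 3 and wildtype replicate 1 lay next to each other, at 1228 and 1439 counts. The means were 27.5 ± 4.82 and 39.1 ± 5.81 CPM, a fold of 1.42. The log2 fold change was 0.51 with a standard error of 0.15 and a 95% interval of 0.18 to 0.83, at an unadjusted p of 0.00594 and an adjusted p of 0.197 (exact permutation p = 0.1). Without wildtype replicate 1 it was 0.64 with an adjusted p of 0.0279, and over all alternative settings the adjusted p ran from 0.00677 to 0.898.

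*Igfbp2*, *Igfbp3* and *Igfbp4* encode soluble binding proteins, of which IGFBP3 is the main carrier of IGF in the circulation and IGFBP4 is known chiefly as an inhibitor of IGF action. *Igfbp2* was at 23.2, 28.8 and 34.9 CPM in the wildtype libraries and at 27.6, 25.2 and 23.8 CPM in the mutant-labelled ones, with a log2 fold change of −0.18 ± 0.14 (SE) and an adjusted p of 0.565. *Igfbp3* was at 89.4, 79.7 and 83.0 CPM and at 78.8, 82.5 and 85.1 CPM, with a log2 fold change of −0.03 ± 0.092 (SE) and an adjusted p of 0.894. *Igfbp4* was at 253, 316 and 309 CPM and at 272, 276 and 284 CPM, with a log2 fold change of −0.08 ± 0.11 (SE) and an adjusted p of 0.760. For all 3 genes the labels overlapped. The 95% intervals bound the difference at −0.49 to 0.14 for *Igfbp2*, −0.24 to 0.17 for *Igfbp3* and −0.32 to 0.16 for *Igfbp4* on the log2 scale. Scaling by library size alone moved the median of all genes from 0.01 to 0.11, and with it *Igfbp3* to 0.069 and *Igfbp4* to 0.027, both still below that median.

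*Igfbp6*, whose product prefers IGF2 over IGF1, was the least expressed, with 30 to 71 counts in every library. It was at 0.675, 1.71 and 1.88 CPM in the wildtype libraries and at 1.62, 1.57 and 1.88 CPM in the mutant-labelled ones. Wildtype replicate 1 was low and the other 5 libraries were close together. The log2 fold change was 0.26 ± 0.36 (SE), with a 95% interval of −0.53 to 1.05 and an adjusted p of 0.761, and without wildtype replicate 1 it was −0.08.

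**Figure D3:**
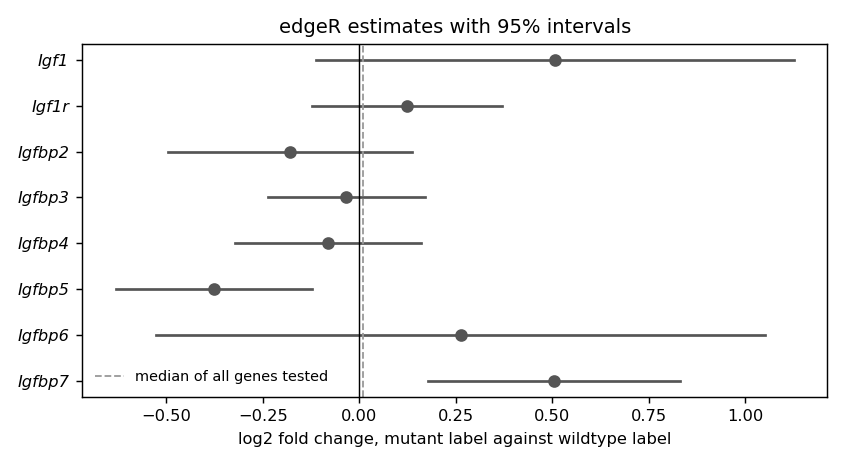
Log2 fold change of each of the 8 genes, mutant label against wildtype label, from edgeR, with 95% intervals (bars) and the median of all genes tested (dashed line). The intervals of *Igfbp5* and *Igfbp7* lie on opposite sides of 0 and those of the other 6 genes cross it.

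Summed per length, the 6 binding protein genes reached 306, 282 and 314 CPM per kb in the wildtype libraries and 268, 261 and 268 CPM per kb in the mutant-labelled ones, and the labels did not overlap. *Igfbp5* made up 58.9%, 51.5% and 56.7% of this sum in the wildtype libraries and 48.1%, 47.2% and 50.4% in the mutant-labelled ones. *Igfbp7* made up 8.75%, 8.04% and 5.99%, against 13.46%, 13.0% and 10.04%. The share of *Igfbp5* was thus lower and that of *Igfbp7* higher in every mutant-labelled library. The share of *Igfbp3* was also higher in every mutant-labelled library, narrowly, at 8.93 ± 0.453% and 9.87 ± 0.424% (SD, n = 3). The *Igfbp3* level itself overlapped between the labels, and a share depends on the other parts of the sum. *Igfbp4* held 22.1 ± 3.32% and 23.6 ± 0.577% of the sum (SD, n = 3), with overlapping ranges. The *Igfbp5* level per length was 6.73, 6.41 and 9.47 times that of *Igfbp7* in the wildtype libraries and 3.58, 3.64 and 5.02 times in the mutant-labelled ones. The sum, shares and ratios use the same values as the single genes and are given as a description. *Igfbp5*, the largest part of the sum, was itself lower in every mutant-labelled library, so the lower sum is not a separate result.

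Levels of cell type markers also differed between the labels. At an unadjusted p under 0.05 in edgeR's test, 8.23% of all genes tested were higher and 7.83% lower. All 12 myocardial markers had lower means in the mutant label, 9 of them at an unadjusted p under 0.05, and none was called by edgeR's test. Other lists were mixed at that threshold. Of 10 endothelial markers 2 were higher and 1 lower, and of 8 vascular smooth muscle markers 3 were higher and 1 lower. The mean log2 CPM of the 12 myocardial markers was 10.49, 10.61 and 11.14 in the wildtype libraries and 10.17, 9.82 and 10.63 in the mutant-labelled ones. The summed level of these 12 markers was between 31840 and 47017 CPM and between 21643 and 31361 CPM, and none was at 0. All 9 mesenchymal markers had higher means in the mutant label, 6 at an unadjusted p under 0.05, with a summed level between 4320 and 8438 CPM in the wildtype label and between 7828 and 10012 CPM in the mutant label. *Igf1* and *Igfbp7* followed the order of the mesenchymal mean in the wildtype libraries, all being highest in replicate 1 and lowest in replicate 3. The means of the vascular smooth muscle, cartilage, and neural crest and glia markers had the same wildtype order. Among the mutant-labelled libraries, *Igf1*, *Igfbp7* and the mesenchymal, vascular smooth muscle and cartilage means were lowest in replicate 3. The neural crest and glia mean was lowest in mutant replicate 1. The order was thus not particular to the mesenchymal markers. With the myocardial mean as a covariate, the log2 fold change of *Igf1* was −0.08, that of *Igfbp5* was −0.29 and that of *Igfbp7* was 0.21 with an adjusted p of 0.898. Liver markers summed to 103 CPM in wildtype replicate 2 and 30.4 CPM in wildtype replicate 3, and to between 2.61 and 7.31 CPM in the other 4 libraries. *Igfbp2*, which fetal liver also expresses, was highest in those same 2 wildtype libraries, at 28.8 CPM in replicate 2 and 34.9 CPM in replicate 3, the opposite order. *Igfbp1*, with few counts, followed the order of the liver sums in the wildtype libraries, with 1, 11 and 3 counts in replicates 1, 2 and 3. All 9 blood markers had lower means in the mutant label, 7 at an unadjusted p under 0.05 and none called by edgeR's test, with a median log2 fold change of −0.56 and none at 0. They summed to 5406, 11900.5 and 10226 CPM in wildtype replicates 1, 2 and 3 and to between 6164 and 6316 CPM in the mutant-labelled libraries. *Igfbp4* was highest in the same wildtype libraries as the blood markers, replicates 2 and 3, and lowest in wildtype replicate 1. The mean log2 CPM of the endothelial markers had the same pattern. It was 6.24, 6.61 and 6.71 in wildtype replicates 1, 2 and 3 and between 6.31 and 6.57 in the mutant-labelled libraries. The part of these tissue differences in the values of the 8 genes was not tested.

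**Figure D4:**
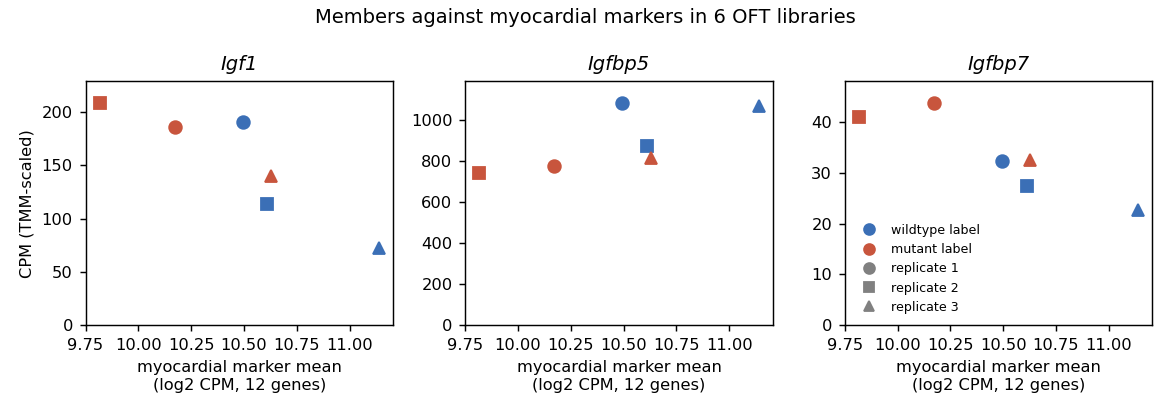
CPM of *Igf1*, *Igfbp5* and *Igfbp7* on the y axes against the mean log2 CPM of 12 myocardial markers on the x axis, 1 point per library by label. The mutant-labelled libraries reach lower marker levels, 9.82 to 10.63, than the wildtype libraries, 10.49 to 11.14, and the ranges overlap.

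The pathway around these genes was described with 6 lists of 69 genes, all tested, of which 0 were called. At an unadjusted p under 0.05 there were 8 genes higher and 4 lower in the mutant label (17.4% of the 69, beside 16.1% of all genes), and the labels did not overlap for 10 (14.5% of the 69, beside 19.6% of all genes). The median log2 fold change was 0.04 over the lists and 0.01 over all genes.

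Of the 11 other ligands, receptors and relatives, 5 had higher and 6 had lower means, with a median log2 fold change of −0.08. *Igf2*, the main fetal ligand, was at 5559 ± 149 CPM in the wildtype label and 5275 ± 437 CPM in the mutant label (SD, n = 3), a log2 fold change of −0.08 with an adjusted p of 0.788. An antisense gene, *Igf2os*, shares 98 exon bases with *Igf2*. *Gm49394*, a protein-coding gene on the same strand, shares 3596 of the 5723 exon bases of *Igf2* and was not among the genes counted. *Igf2r*, which clears IGF2 from the cell surface, was at 2050 ± 442 and 1610 ± 279 CPM with overlapping libraries and an adjusted p of 0.342. The insulin receptor gene *Insr* was at 117 ± 10.3 and 104 ± 5.32 CPM, with an adjusted p of 0.432. *Igfbpl1*, a binding protein relative, was at 5.08, 5.18 and 12.05 CPM and at 2.50, 2.43 and 3.85 CPM, without overlap, with a log2 fold change of −1.34 and an adjusted p of 0.185. *Igfbp1* had 1, 11 and 3 counts in the wildtype libraries and 0, 2 and 0 in the mutant-labelled ones, which is near or under the floor of 3 counts per library.

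Of the 10 genes for IGFBP proteases and their inhibitors, 9 had higher means in the mutant label, with a median log2 fold change of 0.28, and 3 had an unadjusted p under 0.05. The secreted serine protease gene *Htra1* was at 109 ± 43.3 and 162 ± 31.8 CPM, with a log2 fold change of 0.57 and an adjusted p of 0.292. The gelatinase gene *Mmp2* was at 248 ± 58.1 and 339 ± 40.4 CPM, with a log2 fold change of 0.46 and an adjusted p of 0.240. The metalloprotease gene *Adamts1* was at 127 ± 27.8 and 164 ± 23.9 CPM, with an adjusted p of 0.296. *Htra1* was at 157 CPM in wildtype replicate 1, above the 126 CPM of mutant replicate 3, so its labels overlapped. The labels overlapped in the same 2 libraries for *Mmp2*, at 303 and 299 CPM, and for *Adamts1*, at 159 and 137 CPM. *Pappa* and *Pappa2*, whose products are proteases of IGF binding proteins, were at 10.2 ± 3.596 and 12.7 ± 2.24 CPM and at 4.78 ± 2.20 and 6.37 ± 2.08 CPM, with adjusted p of 0.531 and 0.547. They were named after their values were seen.

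Inside the cell, 8 of 13 receptor adaptors and brakes and 12 of 16 PI3K and Akt genes had higher means in the mutant label. So did 4 of 10 genes of the mTORC1 list, which also holds repressors of mTORC1 and a gene of the other mTOR complex. The median log2 fold changes of these lists were 0.01, 0.03 and −0.06, in that order. The adaptor gene *Grb2* was at 60.5 ± 4.79 and 51.6 ± 2.92 CPM (adjusted p = 0.292), and the cytokine-signal suppressor gene *Socs3* at 4.87 ± 0.737 and 6.83 ± 1.28 CPM (adjusted p = 0.254). *Eif4ebp1*, the translational repressor that mTORC1 inactivates, was at 146 ± 30.2 and 108 ± 8.44 CPM (adjusted p = 0.227), and the mTORC1 activator gene *Rheb* at 109.7 ± 4.85 and 88.1 ± 13.7 CPM (adjusted p = 0.252). None of the 16 PI3K and Akt genes had an unadjusted p under 0.05 in edgeR's test.

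The 9 genes for secreted proteins of other families that carry an IGFBP domain had the highest list median, 0.39, with 8 higher means in the mutant label and 4 at an unadjusted p under 0.05. *Kazald1* was at 6.93, 4.77 and 4.16 CPM in the wildtype libraries and at 8.77, 9.31 and 7.21 CPM in the mutant-labelled ones, without overlap (log2 fold change 0.67, adjusted p = 0.203). The matricellular gene *Ccn2* was at 60.8 ± 13.0 and 79.0 ± 6.59 CPM (adjusted p = 0.252). *Ccn5* was under 0.51 CPM in every library, with an adjusted p of 0.242.

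**Figure D5:**
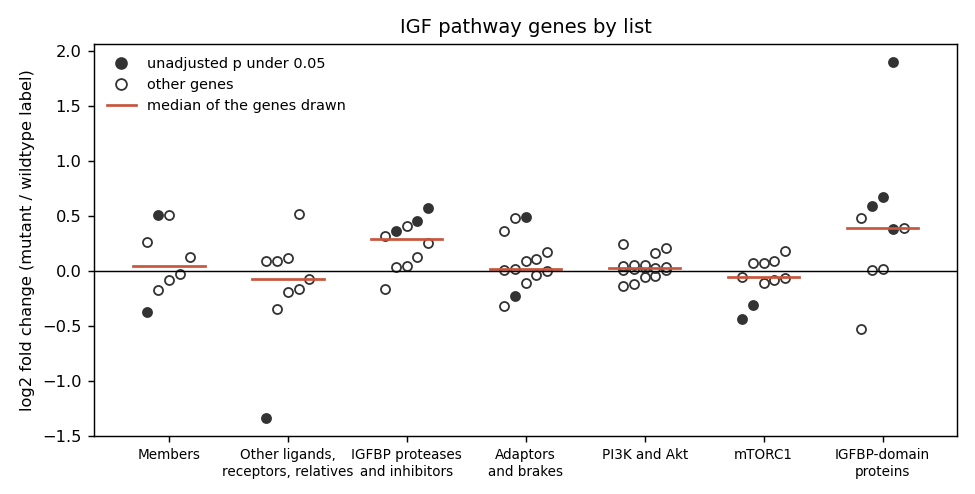
Log2 fold change (mutant label against wildtype label) of the 8 genes and of 6 IGF pathway lists, 1 point per gene, filled at an unadjusted p under 0.05, with a bar at the median of the genes drawn. *Ins2* and *Igfbp1*, with at most 3 counts in every library of a label, are left out, and no gene of the lists was called.

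For each of the 8 genes, the protein-coding genes averaging 10 CPM or more whose log2 CPM correlated best with it over the 6 libraries were listed as a description. The 6 points share the labels, the depth and the tissue differences above. *Igf1* was most like *Dlg2* (Pearson r = 0.999), *Rai14* and *Gli3* (both 0.998), and *Igfbp7* most like *Sfswap* and *Ski* (both 0.999) and *Fam219a* (0.997). For these members 9.02% and 9.17% of all candidates reached an r of 0.9, so many genes shared their pattern. *Igfbp4* was most like *Pecam1* (0.998), an endothelial adhesion gene, *Prdx5* (0.997) and the globin gene *Hbb-bs* (0.995), and *Igfbp5* most like *Parva* and *Patl1* (both 0.997) and *Ndc80* (0.996). For *Igfbp4* and *Igfbp5*, 2.91% and 3.04% of candidates reached an r of 0.9. The patterns of *Igf1r* (*2610021A01Rik*, *Kat6a* and *Chd8*, 0.996 to 0.994), *Igfbp2* (*Rnf187* and *Mcm5*, 0.990 and 0.989), *Igfbp3* (*Sntb2*, *Nfyb* and *Mtrex*, 0.990 to 0.980) and *Igfbp6* (*Entpd6*, *Tmem204* and *Miga2*, 0.990 to 0.983) were also shared less widely than those of *Igf1* and *Igfbp7*, with 4.04%, 2.16%, 1.36% and 0.685% of candidates at an r of 0.9 or more.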

How the data were processed

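The deposited values are raw counts per gene, which the authors made by aligning paired reads to mm10 with TopHat (2.1.0) and counting reads on exons with GenomicAlignments. The library kit was stranded, and whether the counting used strand, and which annotation release it used, are not given in the sources used here. Gene positions and lengths came from GENCODE M21, which held 28723 of the 28777 identifiers.

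The study's own filter was kept, dropping genes whose reads summed to 5 or fewer. The remaining 28157 genes were scaled by TMM and tested with edgeR 4.0.16 (R 4.3.3) by the quasi-likelihood test with Benjamini-Hochberg adjustment over all of them. DESeq2 1.42.0, limma 3.58.1 and 17 alternative settings in all were tried. Single genes were also compared on log2(CPM + 0.5) by a two-sided exact permutation test. Groups follow the sample labels. SDs and standard errors cover the spread between libraries.

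The members, gene lists and tests were chosen with earlier results of these data known. The text names all 8 members, up to 3 genes per pathway list with the smallest unadjusted p under 0.05, *Igf2*, *Igf2r*, *Insr*, *Igfbp1* and *Igfbpl1*, the 3 genes most like each member (1 of those for *Igfbp2* is not reported here), and *Notch1* and *Nos3* as a check of the labels. *Pappa* and *Pappa2* were added outside this rule after their values were seen. Protein sequences were not used here.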

Additional observations from a re-analysis of the deposited data

How the results depend on the processing

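Numbers of genes called depended strongly on the setting. Over all genes the count was 6, and it was 742 with DESeq2, 1577 with the replicate numbers of the titles as a block, 83 with the numbers of the descriptions as a block and 2274 with the title block and a GC and length correction. Leaving out 1 library gave 1 to 2593, the latter without wildtype replicate 1. Of the 8 members, 1 was called with DESeq2 (*Igfbp5*), 2 with the title block (*Igf1* and *Igfbp7*), 3 with the block and the correction (*Igf1*, *Igfbp5* and *Igfbp7*), and 0 to 2 without 1 library. Of the pathway genes, 1 was called with DESeq2, 7 with the title block, 15 with the block and the correction, and 0 to 9 without 1 library. With the title block, log2 fold changes and adjusted p were 0.60 and 0.0187 for *Igf1* and 0.51 and 0.00720 for *Igfbp7*. With the block and the correction they were 0.55 and 0.00499 for *Igf1*, −0.43 and 0.00138 for *Igfbp5*, and 0.50 and 0.00677 for *Igfbp7*. DESeq2 gave −0.38 for *Igfbp5*. Same-numbered deviations correlated at 0.0960, 0.159 and 0.420. Wildtype replicates 2 and 3 correlated best with the mutant replicate of their own number, and wildtype replicate 1 with mutant replicate 2 (0.277). Whether the numbers pair the libraries cannot be decided from so few libraries. Signs turned for *Igf1* with the myocardial covariate (−0.080), for *Igfbp3* (0.069) and *Igfbp4* (0.027) with scaling by library size alone, which moved the median of all genes by a like amount, to 0.11, for *Igfbp4* with the covariate (0.0019), and without wildtype replicate 1 for *Igfbp3* (0.014) and *Igfbp6* (−0.082). Leaving out 1 library gave 0.23 to 0.94 for *Igf1*, 0.04 to 0.24 for *Igf1r*, −0.32 to −0.02 for *Igfbp2*, −0.071 to 0.014 for *Igfbp3*, −0.17 to −0.02 for *Igfbp4*, −0.47 to −0.32 for *Igfbp5*, −0.082 to 0.51 for *Igfbp6* and 0.39 to 0.64 for *Igfbp7*. The cause of these differences was not tested. Without division by length, 3 of the 8 genes kept their place in the order of levels. *Igfbp6*, with at most 71 counts per library, is limited by depth.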

Other observations

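In all 8 genes the coefficient of variation was lower among the mutant-labelled libraries than among the wildtype libraries. It was 47.8% in the wildtype label and 19.4% in the mutant label for *Igf1*, 14.2% and 1.61% for *Igf1r*, and 11.8% and 2.25% for *Igfbp4*, while *Igfbp7* was nearly as variable in both, at 17.5% and 14.9%. Among the 16655 genes averaging 1 CPM or more, 66.6% also had the lower coefficient of variation in the mutant label. The difference in spread was not tested, and each label has 3 libraries.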
